A study of Mus musculus with 16 samples.

Results

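The 46 genes described here drive or mark the cell cycle, and were taken by symbol from the 54532 genes of each table. They were divided into 18 genes of the G1/S transition and DNA replication and 28 genes of G2, mitosis and cell division, referred to as G1/S and G2/M genes. RNA-seq was done in bulk on pulmonary endothelial cells (ECs), obtained from digested lungs with magnetic beads by removing CD45+ cells and then selecting CD31+ cells. Wild-type (WT) C57/BL6J male mice of 8 weeks received saline (n = 4) or 10 mg/kg lipopolysaccharide (LPS, n = 6) into the trachea. In a second experiment, Fgfr1 loxP/loxP mice (n = 3, here loxP) and their littermates with induced deletion of Fgfr1 in ECs (n = 3, here iDEC) all received 2 mg/kg LPS. The deletion was driven by Cre-ERT2 under the VE-cadherin promoter, and both genotypes were given tamoxifen. These mice were adults, with no age in weeks given in the sources used here, and lungs of every group were taken 24 h after the instillation. Reads on genes ranged from 13478726 to 18807007 in the saline libraries, from 17840221 to 19043015 in the LPS libraries, from 15969575 to 17002788 in the loxP libraries and from 16642177 to 16943522 in the iDEC libraries. The labels do not say whether each library is a separate mouse, so p-values measure the spread between these libraries.

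Most ECs of an adult lung are at rest, outside the cell cycle. To divide, a cell first has cyclin D and cyclin E with their kinases switch off the retinoblastoma protein, which frees E2F factors to turn on genes for DNA replication, such as the MCM helicase and the enzymes that make nucleotides. Later, the complex of B-MYB and FOXM1 turns on cyclin B, the mitotic kinases and the proteins of the spindle and the kinetochore. In promoters, E2F sites are known from the first group and CHR elements, bound by the DREAM and MuvB complexes, from the second.

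These elements were looked for in the RefSeq promoters (GRCm38.p6, 250 bases before to 50 bases after the start), which held windows for 36 of the 46 genes. There were none for Ccnd1, Ccne2, Gins2, Mcm4, Ccna2, Aurkb, Kif20a, Tpx2, Pbk and Foxm1. The letters searched on both strands were TTTGAA and TTCGAA for CHR, CCAAT, and TTTCCCGC, TTTGGCGC, TTTGCCGC and TTTCGCGC for E2F. The CHR letters were in 20 of 24 windows of G2/M genes, in 2 of 15 windows of G1/S genes and in 19.2% of the 32851 windows of all genes. The E2F letters were in 6 of 15 windows of G1/S genes, in 1 of 24 of G2/M genes (that of Cdk1) and in 2.26% of all windows. CCAAT was in 21 of 24 windows of G2/M genes, in 9 of 15 of G1/S genes and in 37.4% of all windows. A match is a description of these letters, and 3 of the genes have more than 1 window. Of the genes with a match, the promoters of the 2 G1/S and 2 G2/M genes with the lowest p in LPS over saline are shown, with E2F letters in capitals in Mcm5 and Mcm6 and CHR letters in capitals in Mki67 and Ccnb2. They lie at chr8:75109259-75109558 on the plus strand (Mcm5), chr1:128359656-128359955 on the minus strand (Mcm6), chr7:135716330-135716629 on the minus strand (Mki67) and chr9:70421505-70421804 on the minus strand (Ccnb2).
Mcm5: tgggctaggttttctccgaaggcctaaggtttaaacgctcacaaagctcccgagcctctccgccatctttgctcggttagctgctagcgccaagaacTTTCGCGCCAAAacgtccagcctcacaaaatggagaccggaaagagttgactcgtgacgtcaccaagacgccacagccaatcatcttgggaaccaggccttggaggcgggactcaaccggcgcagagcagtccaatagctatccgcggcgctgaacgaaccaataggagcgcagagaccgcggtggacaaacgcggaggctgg
Mcm6: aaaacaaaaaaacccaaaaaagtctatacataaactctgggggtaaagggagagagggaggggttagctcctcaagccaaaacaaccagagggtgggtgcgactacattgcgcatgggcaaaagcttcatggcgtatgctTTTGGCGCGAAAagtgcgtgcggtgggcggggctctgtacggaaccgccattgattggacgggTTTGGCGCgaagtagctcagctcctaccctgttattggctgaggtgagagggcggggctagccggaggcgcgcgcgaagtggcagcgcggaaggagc
Mki67: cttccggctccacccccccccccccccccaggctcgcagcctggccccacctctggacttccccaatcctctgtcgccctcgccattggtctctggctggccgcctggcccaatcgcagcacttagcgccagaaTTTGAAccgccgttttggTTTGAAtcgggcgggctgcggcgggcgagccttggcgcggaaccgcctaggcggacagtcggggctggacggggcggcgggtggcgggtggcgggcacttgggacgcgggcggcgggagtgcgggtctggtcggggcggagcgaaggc
Ccnb2: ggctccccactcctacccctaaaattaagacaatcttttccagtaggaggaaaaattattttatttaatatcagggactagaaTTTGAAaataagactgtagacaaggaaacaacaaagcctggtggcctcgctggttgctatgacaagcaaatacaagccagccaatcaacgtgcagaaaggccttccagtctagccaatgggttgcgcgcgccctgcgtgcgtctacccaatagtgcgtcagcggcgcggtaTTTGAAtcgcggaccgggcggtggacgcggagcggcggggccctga
The Mcm5 and Mcm6 windows each hold a pair of E2F matches that overlap, 1 on each strand, from base -153 in Mcm5 and from base -110 in Mcm6, counted from the start. Mcm6 has a further E2F match at base -47. Mki67 has CHR matches at bases -116 and -98, and Ccnb2 at bases -167 and 5.

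The cells were checked against the markers of ECs and of the cells that the bead steps should leave out. All 10 EC markers were present in every group, Cldn5 being the most abundant. Summed over the list, the EC markers came to 4123 ± 977 FPKM (SD, n = 4) in saline and 2775 ± 815 FPKM (SD, n = 6) in LPS libraries, and 5 of 10 were lower in LPS (Cdh5, Kdr, Tek, Tie1 and Erg). Markers of leukocytes in general were at 187 ± 114 FPKM (SD, n = 4) in saline and 1894 ± 555 FPKM (SD, n = 6) in LPS libraries, led by Tyrobp, and 6 of 6 were higher. Ptprc, which encodes the CD45 used for removal, was at 3.53 to 10.99 FPKM in saline and at 22.1 to 52.7 FPKM in LPS libraries. Of the macrophage and monocyte markers 7 of 8 were higher, with a median log2 fold change of 3.47 and sums of 22.2 to 47.0 FPKM in the saline and of 332.5 to 742 FPKM in the LPS libraries, led by Csf1r. Of the neutrophil markers 7 of 8 were higher, led by S100a9. Epithelial markers, led by Sftpc, were at 1724 ± 746 FPKM (SD, n = 4) in saline and 572 ± 240 FPKM (SD, n = 6) in LPS libraries. Of 7 tested, 2 were lower and 1 was higher. Lymphocyte markers, led by Cd79a, summed to 93.6 FPKM in saline and 27.4 FPKM in LPS on average, with 3 of 5 tested lower. Fibroblast markers summed to 54.1 and 32.0 FPKM, with 4 of 6 tested lower, while 3 of 4 tested erythroid markers were higher. In bulk libraries, fewer cells of a type and less RNA per cell cannot be told apart, and the part of these markers in the results on cell cycle genes was not tested.

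Saline 1 stood apart from the other saline libraries. It held 463 FPKM of Cdkn1a, the p21 inhibitor of cyclin-dependent kinases (CDKs), where the other 3 saline libraries held 30.2 to 34.5 FPKM, and 1380 FPKM of neutrophil markers where they held 69.5 to 307 FPKM. It was also the highest saline library for 17 of the 28 G2/M genes and 8 of the 18 G1/S genes, and the lowest for 7 and 4. Saline 3 was the lowest for 15 G2/M genes and 7 G1/S genes, and the highest for 1 and 6. Counts without these libraries are given beside the main ones.

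The first comparison, LPS over saline, asked how transcription in pulmonary ECs changed in lung injury. Of the 46 genes, 28 were higher in LPS and 1, Cenpa, was lower. The test took genes that averaged 0.5 FPKM or more, and of the 38 cell cycle genes tested these were 73.7% and 2.63%, and of all 14893 genes tested 29.5% were higher and 23.7% lower (limma on log2(FPKM + 1), Benjamini-Hochberg adjusted p at or under 0.05). A log2 fold change of at least 1 was reached by 9 of the 38 (23.7%), against 11.9% of all genes tested. Taken over the genes called higher, this was 32.1% of the cell cycle genes and 40.2% of all genes. Of the 38 genes, 12 averaged under 0.5 FPKM in saline and passed the filter through the LPS libraries, and 11 of these were called higher, as were 17 of the other 26. The counts over tested genes are descriptions for this reason. The values of the groups did not overlap for 24 genes that were higher, with 22.7% for all genes tested. Without saline 1, 27 of the 28 genes were called higher, and without saline 1 and saline 3, 25 of them. How many genes were higher or lower in all depended on the scaling, with 2720 higher and 4868 lower after scaling on total FPKM, 3570 and 4295 after quantile normalization, and 6491 and 857 after scaling on the EC markers, against 4399 and 3529 as deposited. Of the 28 cell cycle genes, 22, 28 and 28 were called higher under these 3 scalings. With Ccnd1, Cdc20 and Mcm7 the last scaling called 31 higher. The library size that the deposited FPKM implies was not the number of reads on genes. It was 0.981 times that number in saline 1, 1.103 to 1.177 times in the other saline libraries and 0.895 to 1.021 times in LPS, which lowers saline 2 to 4 relative to LPS. After scaling on reads on genes, an alternative chosen after seeing the data, 3473 of all genes were higher and 4621 lower, and 26 of the 28 cell cycle genes were called higher, without Nusap1 and Tyms.

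Genes of both phases were higher. Of the 18 G1/S genes, all tested, 14 were higher, with a median log2 fold change of 0.70. Of the 28 G2/M genes, 20 were tested and 14 of these were higher, with a median of 0.66, beside a median of 0.01 over all genes tested. Cdc6 and Gins2 of the called G1/S genes passed the filter only through the LPS libraries. So did Aurkb, Birc5, Cdk1, Kif11, Mki67, Nusap1, Pbk, Tpx2 and Ube2c of the called G2/M genes. With no filter, which kept all 46 genes, the medians were 0.70 (G1/S) and 0.578 (G2/M), beside -0.015 over all genes. A log2(FPKM + 1) scale understates the change of genes near 0, and most G2/M genes were there: 2 of them had at least 1 FPKM in every saline library and 9 in every LPS library, against 10 and 14 of the G1/S genes. On recovered read numbers (limma-voom) the medians were 0.92 for the G1/S and 1.603 for the G2/M genes, so which phase changed more depended on the scale.

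**Figure D1:**
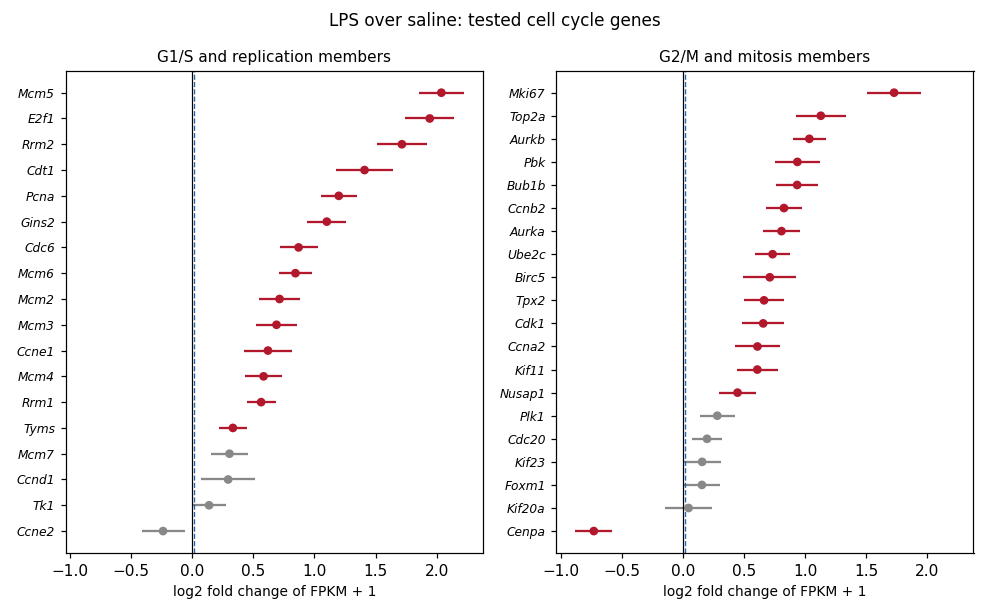
Log2 fold change of FPKM + 1 in LPS over saline (x axis) for each tested cell cycle gene, as points with bars of 1 standard error, in red where the adjusted p is at or under 0.05 and in grey otherwise; the dashed line is the median of all genes tested. Most genes of both phases lie right of 0, from Tyms at 0.33 to Mcm5 at 2.04 among the called ones, and Cenpa lies at -0.73.

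Of the 6 subunits of the MCM helicase, which unwinds DNA ahead of replication, Mcm2 to Mcm6 passed the test and Mcm7 did not. Mcm5 (chr8:75109569-75128439 on GRCm38) was at 1.95, 2.60, 2.33 and 2.28 FPKM in saline 1 to 4 and at 8.30, 12.8 and 17.0 FPKM as the lowest, median and highest LPS library. The groups did not overlap, and the log2 fold change was 2.04 ± 0.19 (SE), with an adjusted p of 1.04e-05 in limma. Mcm6, of the same ring, was at 7.45, 7.69, 8.08 and 7.36 FPKM in saline and at 11.4, 15.9 and 17.1 FPKM as the lowest, median and highest in LPS. Its rise was smaller, at 0.84 ± 0.14 (SE) on the log2 scale (adjusted p = 0.000416, limma). Mcm2, Mcm3 and Mcm4 rose by 0.71, 0.69 and 0.58 on the log2 scale. The remaining subunit, Mcm7, had a log2 fold change of 0.30 and an adjusted p of 0.12 in limma, and its groups overlapped. Mcm3 and Mcm4 did not pass after scaling on total FPKM, and Mcm7 passed after scaling on the EC markers. The loading factors Cdt1 and Cdc6 rose with log2 fold changes of 1.41 and 0.87, Cdc6 being one of the genes that passed the filter only through the LPS libraries.

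Gins2, a subunit of the GINS complex that completes the active helicase, was nearly silent in saline. It was at 0.111, 0.0993, 0.219 and 0.0620 FPKM in saline 1 to 4, from 5 to 16 reads, and at 0.782, 1.47 and 2.00 FPKM as the lowest, median and highest LPS library. The groups were apart, at a log2 fold change of 1.10 ± 0.16 (SE, adjusted p = 0.000227 in limma). Its exons overlap those of Gse1 on the other strand, and the strand of the reads is not given in the sources used here, so reads of the 2 genes cannot be told apart. Pcna, the sliding clamp of DNA polymerases, had, with Ccnd1, the highest levels of the G1/S genes in this experiment. It was at 19.97, 21.8, 26.3 and 23.6 FPKM in saline and at 43.1, 57.3 and 65.6 FPKM as the lowest, median and highest in LPS. No LPS library was as low as any saline library, and the log2 fold change was 1.199 ± 0.15 (SE, adjusted p = 7.17e-05 in limma).

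E2f1, the activator of many of these genes, and the nucleotide enzyme Rrm2 started from low levels. E2f1 was at 0.647, 0.559, 0.426 and 0.467 FPKM in saline and at 2.71, 4.69 and 7.87 FPKM as the lowest, median and highest in LPS. The mean FPKM was 9.64-fold higher in LPS, and the log2 fold change was 1.94 ± 0.20 (SE, adjusted p = 2.37e-05 in limma). Rrm2, the small subunit of ribonucleotide reductase that is made in S phase, was at 0.546, 0.571, 0.505 and 0.513 FPKM in saline and at 2.54, 3.79 and 6.999 FPKM as the lowest, median and highest in LPS. For both genes the saline libraries were close together and the LPS libraries spread out above them, with a log2 fold change of 1.72 ± 0.20 (SE) for Rrm2 (adjusted p = 5.59e-05, limma). The large subunit Rrm1 rose by 0.56 and thymidylate synthase (Tyms) by 0.33 on the log2 scale. Both lost their calls after scaling on total FPKM, and Tyms also after scaling on reads on genes, with no filter, with the replicate block and without saline 2, saline 4, LPS 4 or LPS 5. Thymidine kinase (Tk1) had a log2 fold change of 0.14 and did not pass the test.

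Of the 3 G1 cyclins among the 46 genes, Ccne1 passed the test. Cyclin D1 (Ccnd1), which ties the cycle to growth factors, was at 22.9, 23.4, 30.1 and 20.8 FPKM in saline and at 18.7, 28.0 and 44.5 FPKM as the lowest, median and highest in LPS. The groups overlapped, and the log2 fold change of 0.29 ± 0.22 (SE, adjusted p = 0.28 in limma) turned to -0.04 after scaling on total FPKM and to -0.08 after quantile normalization. After scaling on the EC markers it was 0.93 and passed the test (adjusted p = 0.0024, limma). Cyclin E1 (Ccne1) rose by 0.62 on the log2 scale, with overlapping groups (LPS 6 at 0.552 FPKM), and lost its call after scaling on total FPKM, with no filter and without saline 3. Cyclin E2 (Ccne2) had a log2 fold change of -0.24 and did not pass the test. The other D cyclins, which are outside the 46 genes and are named here after their values were seen, were both higher in LPS. Ccnd2 was at 5.63 to 7.11 FPKM in saline and 9.31 to 20.96 FPKM in LPS (log2 fold change 1.00 ± 0.18, SE, adjusted p = 0.00102 in limma). Ccnd3 was at 11.7 to 19.02 FPKM in saline and 19.88 to 32.5 FPKM in LPS (0.93 ± 0.17, SE, adjusted p = 0.000862 in limma), and the groups of neither gene overlapped.

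**Figure D2:**
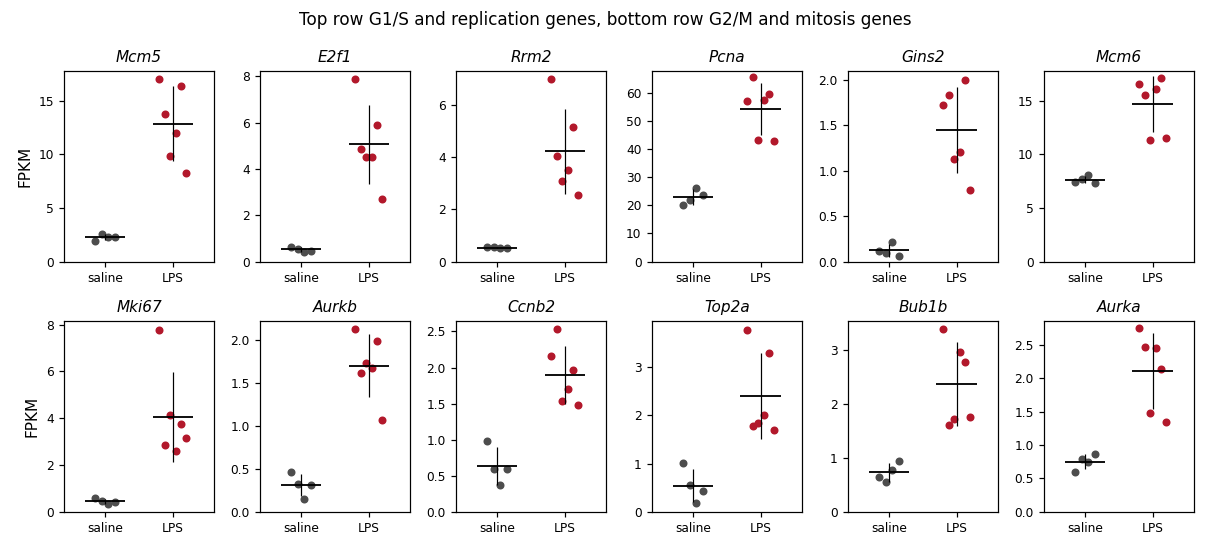
FPKM (y axis, from 0) of the 6 G1/S genes (top) and 6 G2/M genes (bottom) with the lowest p in LPS over saline, with a point for each saline (grey, n = 4) and LPS (red, n = 6) library, the mean as a horizontal line and 1 SD as a vertical line. In all 12 genes every LPS library lies above every saline library, as for Mki67 at 2.62 FPKM or more in LPS and 0.586 FPKM or less in saline.

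Among the G2/M genes, Mki67 (chr7:135689784-135716361), which encodes the proliferation marker Ki-67 on mitotic chromosomes, had the largest log2 fold change of FPKM + 1. It was at 0.586, 0.454, 0.351 and 0.419 FPKM in saline and at 2.62, 3.46 and 7.79 FPKM as the lowest, median and highest in LPS. LPS 1 was the highest, and the mean FPKM was 8.94-fold higher in LPS (log2 fold change 1.73 ± 0.22 SE, adjusted p = 9.66e-05 in limma). Top2a, the topoisomerase that untangles chromosomes, was at 1.01, 0.557, 0.180 and 0.434 FPKM in saline and at 1.71, 1.93 and 3.78 FPKM as the lowest, median and highest in LPS. Saline 1 was the highest and saline 3 the lowest of the controls, and all LPS libraries were above them (log2 fold change 1.13 ± 0.21 SE, adjusted p = 0.00101 in limma).

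The kinases that start and drive mitosis were higher in part. Cdk1, the main mitotic kinase, was at 0.567, 0.220, 0.136 and 0.206 FPKM in saline and at 0.523, 1.18 and 1.47 FPKM as the lowest, median and highest in LPS. Here saline 1 was above LPS 3, so the groups overlapped, and the log2 fold change was 0.66 ± 0.17 (SE, adjusted p = 0.00779 in limma). Its partner cyclin B2 (Ccnb2) was at 0.988, 0.590, 0.366 and 0.597 FPKM in saline and at 1.48, 1.84 and 2.54 FPKM as the lowest, median and highest in LPS, from 10 to 20 reads in the saline libraries. The groups were apart, with a log2 fold change of 0.83 ± 0.15 (SE, adjusted p = 0.000753 in limma). Cyclin A2 (Ccna2) rose by 0.61 on the log2 scale, with overlapping groups, and lost its call with no filter and without saline 2, saline 3 or saline 4.

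Aurkb, the kinase of the chromosomal passenger complex, was at 0.462, 0.322, 0.152 and 0.310 FPKM in saline and at 1.07, 1.71 and 2.12 FPKM as the lowest, median and highest in LPS. Aurka, the kinase of spindle poles, was at 0.597, 0.786, 0.752 and 0.863 FPKM in saline and at 1.35, 2.29 and 2.75 FPKM as the lowest, median and highest in LPS. Both were apart between the groups, with log2 fold changes of 1.04 ± 0.14 (SE, adjusted p = 0.000123 in limma) for Aurkb and 0.81 ± 0.15 (SE, adjusted p = 0.00123) for Aurka. Bub1b, of the spindle checkpoint, was at 0.654, 0.550, 0.786 and 0.951 FPKM in saline and at 1.62, 2.27 and 3.41 FPKM as the lowest, median and highest in LPS. It had a log2 fold change of 0.94 ± 0.17 (SE, adjusted p = 0.00112 in limma). The passenger complex gene Birc5 (survivin), the spindle genes Tpx2, Kif11 and Nusap1, the ubiquitin enzyme Ube2c and the kinase Pbk also rose, with log2 fold changes from 0.45 in Nusap1 to 0.94 in Pbk. Nusap1 lost its call after scaling on total FPKM or on reads on genes, with no filter, with the block and without saline 1, saline 3, LPS 1, LPS 5 or LPS 6, and Birc5 without saline 3 or saline 4. Pbk was listed at 0 in saline 1 and saline 3.

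Some regulators and motors of G2 and mitosis did not pass the test, namely Plk1 (log2 fold change 0.28, called after quantile normalization at 0.36), Cdc20 (0.20, called after scaling on the EC markers), Foxm1 (0.16), Kif23 (0.16) and Kif20a (0.05). Cdc20, which activates the complex that ends mitosis, was at 2.73 to 3.02 FPKM in saline and 2.70 to 4.65 FPKM in LPS libraries. Its mean FPKM over the 10 libraries was the highest of the G2/M genes, but not within either group. Cenpa had the higher mean in saline (3.05 against 2.885 FPKM) and Mki67 in LPS (4.05 against 3.49 FPKM). Exons of Plk1, Cdc20, Foxm1 and Kif20a overlap those of another gene, and those of Kif23 do not. The G1/S genes that did not pass, Ccnd1, Ccne2, Mcm7 and Tk1, also share exons with another gene. Of the genes called higher, Gins2, Top2a, Ccna2, Nusap1 and Ube2c do so. With Prc1, which was not tested, these make up the 14 of the 46 genes with such an overlap. The part of mixed reads in which genes passed was not tested.

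Cenpa (chr5:30666777-30674830), the histone H3 variant that marks centromeres, went the other way. It was at 4.03, 3.19, 1.80 and 3.19 FPKM in saline and at 1.25, 1.39 and 1.65 FPKM as the lowest, median and highest in LPS, from 188 to 414 and 135 to 157 reads. The groups were apart and the log2 fold change was -0.73 ± 0.15 (SE, adjusted p = 0.00217 in limma), which after scaling on the EC markers was -0.28 and no longer passed (adjusted p = 0.33).

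The 8 G2/M genes below 0.5 FPKM on average were not tested in the fit. They were Ccnb1, Bub1, Cenpe, Cenpf, Prc1, Ect2, Anln and Hmmr. Cyclin B1 (Ccnb1) was at 0.0179, 0.0965, 0.0930 and 0.0602 FPKM in saline, from 1 to 9 reads, and at 0.262, 0.583 and 0.863 FPKM as the lowest, median and highest in LPS. The checkpoint kinase Bub1 was listed at 0 in saline 1 and at 0.140 FPKM or less in the other saline libraries, and was at 0.422, 0.593 and 0.960 FPKM as the lowest, median and highest in LPS. Ccnb1, Bub1, Cenpe and Hmmr were higher in each LPS library than in any saline library (exact permutation test, two-sided, p = 0.00952 each and unadjusted, the smallest that 4 against 6 libraries allow). Values of Cenpf, Prc1, Ect2 and Anln overlapped. No share over all genes below the filter is given here, so this describes these 8 genes only. In limma with no filter the first 4 were called higher, with log2 fold changes from 0.22 in Cenpe to 0.64 in Bub1 (adjusted p from 0.00345 in Bub1 to 0.0226 in Hmmr), and the other 4 were not.

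Many of the 46 genes shared the same highest and lowest LPS libraries. LPS 1 was highest for 24 genes and LPS 5 for 15, and LPS 6 was lowest for 24. The mean log2(FPKM + 1) of the G1/S genes was 2.98 in LPS 1 and LPS 5 and 2.44 in LPS 6, and that of the G2/M genes was 1.29, 1.23 and 0.91. The macrophage and monocyte markers were also highest in LPS 1 and LPS 5, at 742 and 569.6 summed FPKM, and lowest in LPS 6, at 332.5. The leukocyte markers were lowest in LPS 6 too, at 1026 FPKM, and highest in LPS 2 and LPS 1, at 2486 and 2480 FPKM. By mean log2(FPKM + 1), as used for the cell cycle genes above, they were highest in LPS 1 (8.16, with 7.93 in LPS 2). The neutrophil markers were highest in LPS 2 and LPS 4, at 6638 and 3428 FPKM, with 2730 in LPS 1 and 2478 in LPS 5. Their lowest sum was in LPS 6, at 1293 FPKM. The EC markers were lowest in LPS 1, at 1477 FPKM. The part of these markers in the order of the libraries was not tested.

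**Figure D3:**
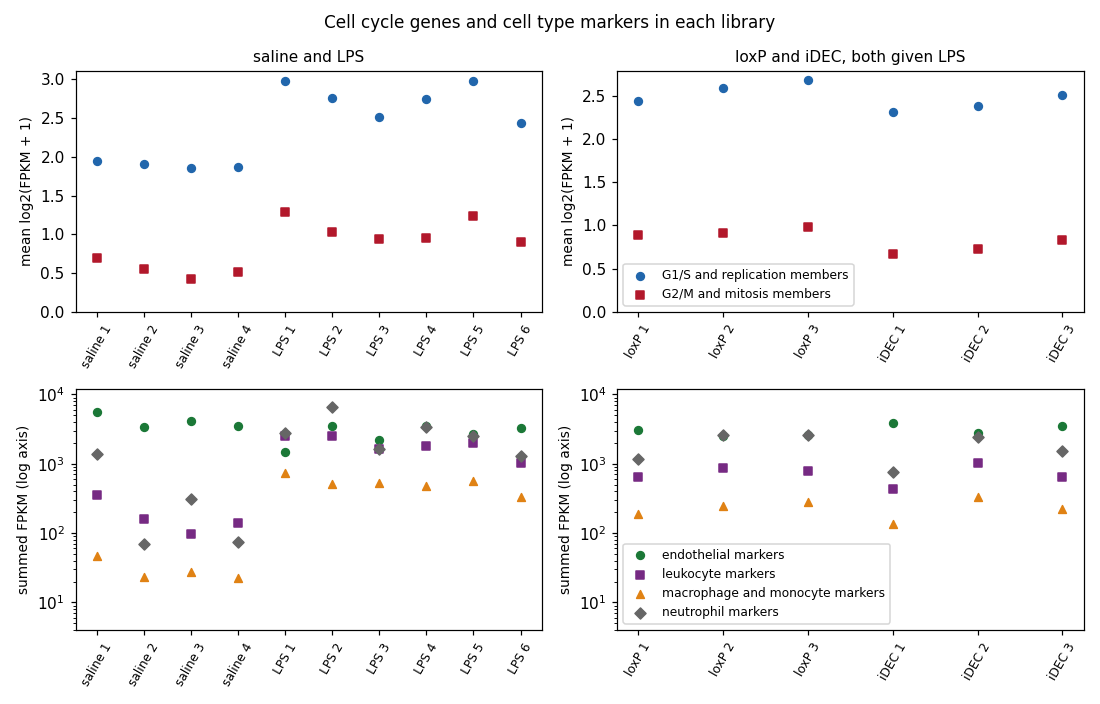
Mean log2(FPKM + 1) of the G1/S and G2/M genes (top) and summed FPKM of 4 marker lists (bottom, log axis) in each library of the saline and LPS experiment (left) and of the loxP and iDEC experiment (right). Every LPS library lies above every saline library in both phases and in the leukocyte and macrophage lists, and the G2/M genes of the iDEC libraries, at 0.83 or less, lie below those of the loxP libraries, at 0.89 or more.

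Other genes of the cycle were read from 5 lists of 129 genes, of which 102 were tested, 48 higher (47.1%) and 9 lower (8.82%), beside 29.5% and 23.7% of all genes tested. After scaling on total FPKM 26 were higher and 17 lower, after scaling on reads on genes 35 and 16, and after scaling on the EC markers 64 and 1. Some of the tested genes, such as Ccnf, Cdc45 and Espl1, were under 0.5 FPKM in every saline library. They passed the filter through the LPS libraries, so the counts over these lists are descriptions as well. Among CDK inhibitors and growth arrest genes, 6 were higher and 3 lower of 15 (40% and 20%). Gadd45b, a stress-induced growth arrest gene, rose by 2.32 on the log2 scale and Cdkn2d (p19) by 1.18, while Cdkn2b (p15) changed by -1.39. Gadd45a rose by 1.06, but lost its call without saline 2, 3 or 4 or without LPS 1, 2, 3 or 4 (adjusted p from 0.061 to 0.14, limma). Its call was also lost with no filter, after scaling on total FPKM or on reads on genes, and after quantile normalization.

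Over the 10 libraries Cdkn1a had the highest mean FPKM of this list, but not in each library. Btg2 was above it in saline 2 to 4 (44.9 to 55.5 FPKM), and Gadd45b in LPS 1 and LPS 2 (283.8 and 264.7 FPKM). Cdkn1a was at 463, 30.3, 34.5 and 30.2 FPKM in saline 1 to 4 and at 113, 182 and 267 FPKM as the lowest, median and highest in LPS. Saline 1 was above all LPS libraries and the other 3 were below them. The log2 fold change was 1.47 ± 0.68 (SE, adjusted p = 0.087 in limma), and without saline 1 it was 2.43 (adjusted p = 4.23e-05), and over the alternatives run the adjusted p ranged from 4.23e-05 to 0.23. Cdkn1b (p27), which holds resting cells out of the cycle, was at 42.6, 30.5, 30.0 and 30.5 FPKM in saline and at 20.6, 23.3 and 27.7 FPKM as the lowest, median and highest in LPS. It changed by -0.48 ± 0.13 (SE, adjusted p = 0.00987 in limma), and by 0.16 after scaling on the EC markers. With the replicate block it did not pass (adjusted p = 0.062, limma), nor did it without saline 1 and saline 3 (adjusted p = 0.051, limma).

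Of the RB, E2F and DREAM genes, 3 were higher and 1 was lower of 15 tested (20% and 6.67%), both shares being below those of all genes. These were E2f2 (log2 fold change 1.27), E2f4 (0.43) and the E2F partner Tfdp1 (0.41), and another partner, Tfdp2 (-0.81). E2f4 and Tfdp1 did not pass after scaling on total FPKM, scaling on reads on genes or quantile normalization, Tfdp1 also not without saline 3 or saline 4, and Tfdp2 did not pass after scaling on the EC markers (adjusted p = 0.16, limma). Rb1, the retinoblastoma gene, was at 20.2, 16.3, 12.9 and 15.01 FPKM in saline and at 14.2, 18.2 and 23.1 FPKM as the lowest, median and highest in LPS. The groups overlapped, at a log2 fold change of 0.18 ± 0.16 (SE, adjusted p = 0.36 in limma) that was -0.15 after scaling on total FPKM and -0.09 after quantile normalization. After scaling on the EC markers it was 0.80 and passed the test (adjusted p = 0.047, limma), and after scaling on reads on genes it was -0.01.

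Of the other cyclins, CDKs and their switches, 10 were higher and 2 lower of 15 (66.7% and 13.3%). Cks2 and Cks1b, small subunits of CDK complexes, rose by 2.68 and 2.18 on the log2 scale, and the phosphatase Cdc25b changed by -1.13 (adjusted p = 0.053 in limma after scaling on the EC markers). Myc, a growth factor target that promotes entry into the cycle, was at 3.78, 2.28, 1.34 and 2.34 FPKM in saline and at 8.46, 12.0 and 13.8 FPKM as the lowest, median and highest in LPS. The groups were apart, at a log2 fold change of 1.91 ± 0.20 (SE, adjusted p = 2.79e-05 in limma).

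Of the other DNA replication genes, 17 were higher and 1 (Pold1) was lower of 34 (50% and 2.94%). Uhrf1, which brings DNA methylation to new strands, rose by 1.66, Rfc4, of the clamp loader, by 1.21, Gins1 by 1.199 and the licensing inhibitor Gmnn by 1.09 on the log2 scale. Of the other mitosis genes, 12 were higher and 2 lower of 23 (52.2% and 8.7%). Racgap1 of cytokinesis rose by 1.12, Espl1 (separase) by 1.01 and the chromatin protein Hmgb2 by 1.04 on the log2 scale. Espl1 passed the filter only through the LPS libraries. The condensin subunit Ncaph changed by -0.79 (adjusted p = 0.40 in limma after scaling on the EC markers). Hmgb2 was at 46.9 FPKM in saline 1 and at 10.6 to 13.8 FPKM in saline 2 to 4. It lost its call without saline 2, 3 or 4 or without LPS 1, 2, 4 or 5 (adjusted p from 0.060 to 0.12, limma). Its call was also lost with no filter, after scaling on total FPKM and after quantile normalization.

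The second comparison, iDEC over loxP, asked what loss of Fgfr1 in ECs changes in the injured lung. Fgfr1 itself was at 2.90, 2.91 and 2.59 FPKM in loxP 1 to 3 and at 0.683, 1.41 and 1.15 FPKM in iDEC 1 to 3, so every iDEC library was below every loxP library. None of the 46 cell cycle genes was called. None of all 14944 genes tested was called either (0% higher and 0% lower by limma, with 318 higher and 345 lower, or 2.13% and 2.31%, at an unadjusted p under 0.05), and limma-voom on the read numbers called 0. With 3 libraries against 3, an exact permutation test cannot go below p = 0.1.

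The log2 fold changes of the cell cycle genes were mostly below 0. Of the 38 tested, 33 had a log2 fold change below 0, with 46.6% for all genes tested. The medians were -0.22 for the 18 G1/S genes and -0.19 for the 20 tested G2/M genes, beside 0.01 over all genes tested. On scales that compress genes near 0 less, they lay further from 0, at -0.30 and -0.43 with a pseudocount of 0.1 (0.02 over all genes) and at -0.30 and -0.49 with limma-voom on the recovered reads (0.02 over all genes). As a fold of mean FPKM, iDEC over loxP, Ccnb1 (not tested) was at 0.509, Cdk1 at 0.581, Top2a at 0.587, Rrm2 at 0.598 and Ccna2 at 0.598, and none of those tested was called. For 9 of the 38 genes (23.7%) every iDEC library was below every loxP library, which was so for 4.07% of all genes tested. These were Gins2 of the G1/S genes and Top2a, Cdk1, Ccnb2, Birc5, Ect2, Cenpa, Kif23 and Plk1 of the G2/M genes. None of the 38 was wholly above, with 6.1% for all genes tested. Of the tested genes, Cdc6, Cdk1, Birc5, Kif11, Kif23 and Ect2 averaged under 0.5 FPKM in iDEC and passed the filter through the loxP libraries. For this reason the counts over tested genes here are descriptions. With no filter, 41 of the 46 genes had a log2 fold change below 0.

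Same-numbered libraries of the 2 genotypes deviated together, with correlations of 0.25, 0.18 and 0.19, so the genes were also read within the numbered pairs. Unlike-numbered libraries of the first experiment reached correlations of this size too, so the pairing is an assumption drawn from these same data. In 23 of the 38 tested genes iDEC was below loxP in each of the 3 pairs, with 12.8% for all genes tested. In 0 of the 38 it was above in each, and no share over all genes is given here for that direction. With the pairs as a block in limma, no gene was called, and 6 of the 38 had a log2 fold change below 0 with an unadjusted p under 0.05, with 4.01% for all genes tested. These were Top2a (unadjusted p = 0.0186), Mcm5 (0.0300), Mcm7 (0.0345), Rrm2 (0.0371), Mcm4 (0.0389) and Cdt1 (0.0460), and the lowest adjusted p among them was 0.59.

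**Figure D4:**
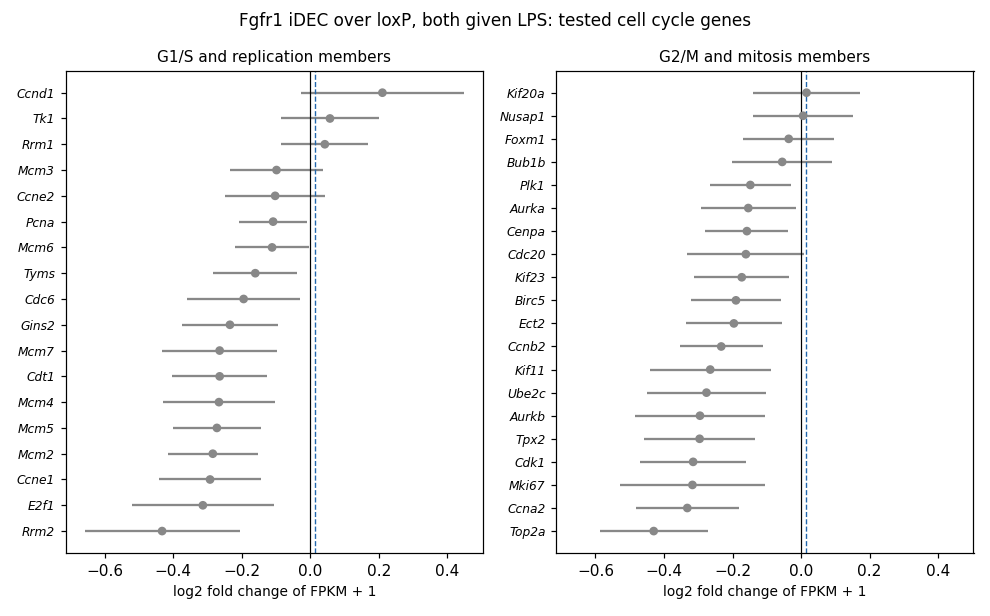
Log2 fold change of FPKM + 1 in iDEC over loxP (x axis) for each tested cell cycle gene, as points with bars of 1 standard error; all points are grey because no adjusted p is at or under 0.05, and the dashed line is the median of all genes tested. The points run from -0.43 (Rrm2 and Top2a) to 0.21 (Ccnd1), and 33 of 38 lie left of 0.

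The G2/M genes with the lowest p were Top2a, Ccna2 and Cdk1. Top2a was at 1.28, 1.84 and 1.98 FPKM in loxP 1 to 3 and at 0.795, 0.968 and 1.23 FPKM in iDEC 1 to 3, without overlap (log2 fold change -0.43 ± 0.16 SE, unadjusted p = 0.0317, adjusted p = 0.96 in limma). Ccna2 was at 0.807, 1.18 and 1.16 FPKM in loxP and at 0.491, 0.577 and 0.813 FPKM in iDEC, where iDEC 3 was just above loxP 1. Cdk1 was at 0.870, 0.926 and 0.737 FPKM in loxP and at 0.296, 0.466 and 0.710 FPKM in iDEC, without overlap. The log2 fold changes of Ccna2 and Cdk1 were -0.33 ± 0.15 (SE) and -0.32 ± 0.16 (SE).

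Mki67 was at 2.19, 1.75 and 3.08 FPKM in loxP and at 1.13, 1.68 and 2.24 FPKM in iDEC. The groups overlapped, while iDEC was the lower in each of the 3 pairs, at a log2 fold change of -0.32 ± 0.21 (SE). Of the 8 genes too low for the test here, Ccnb1, Bub1, Cenpe, Cenpf and Prc1 were lower in every iDEC than in every loxP library, and Anln, Pbk and Hmmr overlapped. The share over all genes below the filter is not given here, so this describes these genes only. Ccnb1 was at 0.502, 0.520 and 0.522 FPKM in loxP and at 0.202, 0.321 and 0.262 FPKM in iDEC, from 36 to 40 and from 14 to 23 reads.

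The G1/S genes with the lowest p were Mcm2, Mcm5 and Ccne1. Mcm2 was at 4.32, 4.94 and 5.91 FPKM in loxP and at 4.01, 3.53 and 4.32 FPKM in iDEC, where iDEC 3 and loxP 1 were level (log2 fold change -0.29 ± 0.13 SE). Mcm5 was at 7.19, 7.95 and 9.53 FPKM in loxP and at 5.96, 6.64 and 7.22 FPKM in iDEC, and overlapped by a small margin (-0.27 ± 0.13 SE on the log2 scale). Ccne1 was at 1.08, 0.778 and 1.24 FPKM in loxP and at 0.548, 0.797 and 0.624 FPKM in iDEC, a log2 difference of -0.29 ± 0.15 (SE). Ccnd1, the most abundant G1/S gene of this experiment, was at 49.3, 50.5 and 50.3 FPKM in loxP and at 65.1, 39.3 and 76.0 FPKM in iDEC, so the iDEC libraries lay on both sides of the loxP libraries.

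Of the 102 tested genes of the 5 lists, 0 were called, with 1 higher and 4 lower at an unadjusted p under 0.05 in limma. The gene with the lowest p was Cdkn1a, at 94.9, 88.1 and 58.4 FPKM in loxP and at 169, 174 and 123 FPKM in iDEC. The groups were apart, and the log2 fold change of 0.95 ± 0.23 (SE) had an unadjusted p of 0.00544 and an adjusted p of 0.96 in limma. Cdkn1b, Rb1 and Myc had log2 fold changes of -0.04, 0.12 and 0.20.

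Marker levels also varied among these libraries. Leukocyte markers summed to 636, 864.5 and 788 FPKM in loxP 1 to 3 and to 433, 1027 and 636 FPKM in iDEC 1 to 3, while EC markers summed to 3086, 2468 and 2573 FPKM and to 3885, 2747 and 3553 FPKM, the latter higher in iDEC in each numbered pair. Neutrophil markers, led by S100a9, summed to 1178, 2566 and 2615 FPKM in loxP and to 756, 2455 and 1550 FPKM in iDEC, lower in each pair, and all 8 had a log2 fold change below 0 (median -0.48), with 0 called. Epithelial markers, led by Sftpc, summed to 837, 1535 and 2702 FPKM in loxP and to 382, 1025 and 774 FPKM in iDEC, lower in each pair, and all 8 had a log2 fold change below 0 (median -0.84), with 0 called. iDEC 1 was lowest for 30 of the 46 cell cycle genes and lowest in leukocyte markers. iDEC 3 was highest for 28 genes, while leukocyte markers were highest in iDEC 2. The part of these markers in the differences was not tested.

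Levels of the experiments stand side by side only, since the tables were normalized separately and dose, genotype and treatment differ. Mean Mki67 was 0.452 FPKM in saline, 4.05 FPKM in LPS, 2.34 FPKM in loxP and 1.68 FPKM in iDEC libraries. Mean Mcm5 was 2.29, 12.9, 8.22 and 6.61 FPKM in the same order, and mean Cenpa was 3.05, 1.39, 1.34 and 1.10 FPKM.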

How the data were processed

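Per the methods and the submitters' processing notes, an Illumina NovaSeq was used, HISAT2 (2.0.5) placed the reads on GRCm38 and featureCounts (1.5.0-p3) counted them per gene. The authors deposited FPKM (reads scaled to gene length and to a library size that is not the number of reads on genes, by a step not given in the sources used here) and the gene length for 54532 genes in 2 tables, 1 per experiment. Strandedness and annotation release are not given in the sources used here. Read numbers were recovered from the deposited FPKM and the lengths, and 100.0% of values came out whole (within 0.01 read, or 0.01% above 100 reads). At low values the reads set the precision, and reads are not independent molecules. In all, 14 of the 46 genes share exons with another gene of GENCODE M21, so their reads may be mixed.

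Groups were taken from the labels. Within each table log2(FPKM + 1) was compared with limma (3.58.1, under R 4.3.3, with the trended eBayes prior) for all genes that averaged 0.5 FPKM or more. P-values were Benjamini-Hochberg adjusted over all genes tested and called at or under 0.05, with no limit on the fold. For single genes an exact two-sided permutation test over libraries was run. Alternatives were another pseudocount, filter or scaling, a fold limit, limma-voom on the recovered reads with the deposited library sizes, a replicate block, and libraries left out in turn. The script was tested on simulated data. Levels come from the file, so FPKM compares genes per length.

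In the second experiment same-numbered libraries of the 2 genotypes deviated together (correlations of 0.25, 0.18 and 0.19 between their deviations from the group means, across genes), so the numbers were taken to pair the libraries. Unlike-numbered libraries of this experiment had correlations from -0.14 to -0.041. In the first experiment, however, saline 2 and LPS 3 correlated by 0.289, so values of this size also occur between unlike numbers. The pairing comes from the numbers in the labels and is an assumption, and the fit with the block called 0 genes as well.

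The 46 genes, the 5 pathway lists and the 10 marker lists were chosen with earlier results of these data known. In LPS over saline, values are given for the 6 called genes of each phase with the lowest p. They are also given for Mki67, Top2a, Cdk1, Pcna, Mcm5 and Ccnd1. Saline values are per library, and LPS values are the lowest, median and highest library. In the second experiment, values per library are given for the 3 genes of each phase with the lowest p. From each pathway list up to 4 called genes with the largest change are named, with Cdkn1a, Cdkn1b, Rb1 and Myc. Cenpa, Ccnb1, Bub1, Pold1 and, in the second experiment, Mki67, Ccnb1, Ccnd1 and Cdkn1a were named after their values were seen. Promoters are from RefSeq.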

Additional observations from a re-analysis of the deposited data

Results flagged for a closer look

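Of 174 group values (cell cycle genes, named genes of the lists and lists, in the saline and in the LPS group), 11 had a library far from the others by Dixon's criterion, where chance alone gives about 8.7. Saline 1 was the far library in 7 of them. It held 0.217 FPKM of Cdc6 (0.0750 to 0.0972 in the other saline libraries), 4.68 FPKM of Mcm7 (7.26 to 7.58), 0.526 FPKM of Anln (0.0953 to 0.145), 463 FPKM of Cdkn1a (30.2 to 34.5), 42.6 FPKM of Cdkn1b (30.0 to 30.5) and 46.9 FPKM of Hmgb2 (10.6 to 13.8). Its mean log2(FPKM + 1) over 8 genes of immature neutrophils was 3.61, against 1.96 to 2.08, with Elane at 6.76 FPKM and Mpo at 5.21 FPKM.

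Saline 3 had a mean log2(FPKM + 1) of 1.72 over the lymphocyte genes, against 3.18 to 3.31 in the other saline libraries, and of 2.21 over the fibroblast genes, against 2.70 to 2.77. Among the LPS libraries, LPS 1 held 0.151 FPKM of Cenpf, against 0.0542 to 0.0854, and LPS 2 held 2.11 FPKM of Ube2c, against 1.11 to 1.39. The causes were not tested.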

How the results depend on the processing

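In LPS over saline, 28 cell cycle genes were higher and 1 was lower, and 11 were higher with a mean of at least 2 FPKM, a filter that left 15 of the 46 genes in the test (1 of them a G2/M gene called higher). With a log2 fold change of at least 1, 9 were higher (6 G1/S and 3 G2/M) and 0 lower, and 1768 and 1011 of all genes were higher and lower. Scaling on total FPKM left 2720 of all genes and 9 G1/S genes higher, and scaling on the EC markers left 857 of all genes and 0 cell cycle genes (also 0 G2/M genes) lower. Over all genes tested, the median log2 fold change moved to -0.25 and 0.52 under these scalings, to -0.14 under scaling on reads on genes (chosen after seeing the data) and to 0.12 under the filter. The medians of the G1/S genes were 0.45 and 1.202 and those of the G2/M genes 0.54 and 0.92 under the same scalings, above the median of all genes in each. Among the genes given per library or named from the lists, the direction turned for Ccnd1 (-0.04 on total FPKM, -0.079 after quantile normalization), Rb1 (-0.15 and -0.091, and -0.011 on reads on genes) and Cdkn1b (0.16 on the EC markers). It also turned, from values that had not passed, for Mcm7, Cdc20, Tk1 and Kif20a on total FPKM (-0.007 to -0.073), for Ccne2 on the EC markers (0.13) and for Kif20a with the block (-0.013), on reads on genes (-0.017) and without saline 3, saline 4 or LPS 1. The causes were not tested. With 1 library left out, 24 to 28 of the 28 genes were called higher, and without saline 1 and saline 3, chosen after seeing the data, 26 genes were, 25 of them shared. In iDEC over loxP no alternative called any gene, and the EC marker scaling moved the median of all genes to -0.12.

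In the fit with the replicate block, 26 cell cycle genes were called higher and 1 lower, and 3438 and 2561 of all genes, in LPS over saline. Same-numbered saline and LPS libraries correlated by 0.10, -0.16, -0.21 and -0.12, so these numbers were not taken as pairs. Unlike-numbered ones reached 0.289 (saline 2 and LPS 3). The block changed no call in iDEC over loxP, where it called 0 genes.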
